A study of Mus musculus with 63 samples.

Results

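The expression of 10 genes of the fetal liver was followed through whole embryos, adult brain and mouse embryonic fibroblasts (mEFs). The 10 genes were taken by name from the 24990 gene rows of the RNA-seq tables, and all 10 had a row. Of these, 9 encode proteins that hepatocytes secrete into plasma: *Alb* (albumin, the main carrier of blood plasma), *Afp* (alpha-fetoprotein, its fetal counterpart), *Apoa1* and *Apoa2* (the main proteins of high-density lipoprotein), *Trf* (transferrin, the iron carrier), *Ttr* (transthyretin, which carries thyroid hormone and retinol-binding protein), *Serpina1a* (alpha-1-antitrypsin, an inhibitor of neutrophil elastase), *Fgb* (the fibrinogen beta chain) and *Ahsg* (fetuin-A). The last gene, *Hnf4a*, encodes a nuclear receptor that drives hepatocyte genes and is not secreted.

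The series examined mice that lack *Chaserr*, a long noncoding RNA made just upstream of *Chd2*, which encodes a chromatin remodeller. The founders were CB6F1 Ola HSD mice, crossed back to C57BL/6 Ola HSD in later generations, so the background is mixed. Whole embryos at E9.5 and E13.5 and adult brains were either WT or Chaserr+/-, with 3 samples per genotype. The mEFs were primary cultures from E13.5 embryos whose head and liver had been removed, and they came in 4 sets that each had their own 3 WT cultures: Chaserr+/- (n = 3), Chaserr-/- (n = 3), Chd2m/m (n = 2; a frameshift in the coding sequence of *Chd2*) and Chaserr-/- Chd2m/m (n = 3, with the cross named differently from that of its WT cultures). Further data were ATAC-seq peaks of 12 mEF libraries and 2 input libraries of Neuro2a neuroblastoma cells. The Chaserr deletion was carried by a pair of mouse lines that the study used as equivalents, and the labels do not say which whole embryos shared a litter. The WT cultures of the Chaserr+/- and Chaserr-/- sets are labelled as coming from the pregnancy of their mutant cultures, so that littermates were compared there and p-values measure the spread within 1 pregnancy.

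RNA libraries held 9672637 to 33192002 counts. The mean of *Chd2* was higher in Chaserr+/- samples of every tissue, going from 26.0 ± 0.453 to 43.2 ± 5.26 TPM, a level scaled for transcript length and library size, at E13.5 (SD, n = 3), and the difference passed the test at E13.5 (log2 fold change 0.78, adjusted p = 0.00290 by edgeR's quasi-likelihood test). At E9.5 (means of 25.1 TPM in WT and 39.1 TPM in Chaserr+/-) and in brain (9.35 and 18.9 TPM) *Chd2* did not pass, as no gene did. *Chaserr* had 0 counts in Chaserr-/- mEFs. One library stood apart for the genes described here: the E13.5 embryo labelled Chaserr+/- replicate 1, so results that rest on it are given with and without it. The embryo libraries used the TruSeq kit and the mEF libraries the SENSE kit, while in each brain group replicate 3 used TruSeq and the others SENSE.

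In the mouse, hepatoblasts bud from the foregut shortly before E9.5 and invade the surrounding mesenchyme, and by mid-gestation the liver is both a source of plasma proteins and the main site of definitive red cell formation. Before the liver takes over, the visceral endoderm of the yolk sac makes many of the same proteins, among them *Afp*, *Apoa1*, *Trf* and *Ttr*. Outside the liver, *Ttr* is a major product of the choroid plexus, the epithelium that makes cerebrospinal fluid, and *Trf* is made by oligodendrocytes, the myelinating cells of the brain.

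Hepatocyte promoters are compact and are read by a small group of factors: HNF1, HNF4, C/EBP and FOXA proteins. In mm9 coordinates, *Alb* (chr5:90889915-90905629) and *Afp* (chr5:90919740-90937933) lie in tandem on the plus strand with 14110 bases between them, and the other genes lie on other chromosomes. RefSeq promoters (GRCm38.p6) were available for 8 of the 10 genes, from 250 bases before to 50 after each start. To show which short motifs these promoters share, the 150 bases before the start are printed below, 5′ to 3′ on the gene's strand, for the neighbours *Alb* and *Afp* and for 4 of the genes that moved most closely with *Alb* between E13.5 embryos. The stretches are chr5:90460720-90460869 (plus strand) for *Alb*, chr5:90490564-90490713 (plus) for *Afp*, chr9:46228480-46228629 (plus) for *Apoa1*, chr12:103863620-103863769 (minus) for *Serpina1a*, chr3:83049864-83050013 (minus) for *Fgb* and chr16:22891865-22892014 (plus) for *Ahsg*. Capitals mark matches, on either strand, to the HNF1 motif GTTAAT, a single arm of its palindromic site, the C/EBP motif TTGCNNAA, the FOXA motif TGTTTGC and the TATA box TATAAA.
Alb: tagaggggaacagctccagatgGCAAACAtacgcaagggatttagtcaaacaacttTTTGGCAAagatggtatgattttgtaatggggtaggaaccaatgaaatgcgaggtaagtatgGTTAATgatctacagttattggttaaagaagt
Afp: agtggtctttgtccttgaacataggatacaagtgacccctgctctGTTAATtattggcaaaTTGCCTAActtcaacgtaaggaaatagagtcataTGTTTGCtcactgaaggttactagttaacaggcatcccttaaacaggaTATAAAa
Apoa1: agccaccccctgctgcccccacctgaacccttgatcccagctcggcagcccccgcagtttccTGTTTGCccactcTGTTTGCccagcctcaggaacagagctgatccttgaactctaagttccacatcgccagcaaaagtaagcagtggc
Serpina1a: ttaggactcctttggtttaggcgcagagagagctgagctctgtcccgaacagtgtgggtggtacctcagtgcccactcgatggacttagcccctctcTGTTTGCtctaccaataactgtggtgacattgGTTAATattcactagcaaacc
Fgb: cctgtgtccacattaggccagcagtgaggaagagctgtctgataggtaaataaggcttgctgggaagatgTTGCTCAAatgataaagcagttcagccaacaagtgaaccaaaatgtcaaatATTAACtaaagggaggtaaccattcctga
Ahsg: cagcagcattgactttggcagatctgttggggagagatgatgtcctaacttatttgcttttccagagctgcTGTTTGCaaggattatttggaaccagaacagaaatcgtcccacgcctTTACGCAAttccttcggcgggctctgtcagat

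The HNF1 motif was present in the promoters of 5 of the 8 genes (*Alb*, *Afp*, *Serpina1a*, *Fgb* and *Hnf4a*), against 7.10% of all 32851 promoters of this length. In *Alb* it lay 32 to 27 bases before the start and in *Afp* 105 to 100 bases before it. The C/EBP motif was present in 6 of 8 genes (*Alb*, *Afp*, *Apoa2*, *Serpina1a*, *Fgb* and *Ahsg*, against 10.8% of all promoters). The FOXA motif TGTTTGC was present in 5 (*Alb*, *Afp*, *Apoa1*, *Serpina1a* and *Ahsg*, against 5.07%). The shares count promoters, and the 8 genes have 10 promoters. Of these 10, 5 held the HNF1 motif, 6 the C/EBP motif and 5 TGTTTGC. *Apoa1* held 2 copies of the FOXA motif. The C/EBP match of *Serpina1a* lies after its start, outside the stretch shown. The other FOXA spelling TGTTTAC was found in *Apoa2* alone (3.65% of all promoters), TATAAA in *Afp* and *Apoa2* (13.6%), and neither the HNF4 core CAAAGTCC (1.42%) nor the full palindromic HNF1 site (0.00913%) was found in any of them. No 2 of these matches overlapped. Such matches describe the letters of these windows only.

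The first comparison asked how the 10 genes rose between E9.5 and E13.5. *Alb* was low in E9.5 embryos, at 1.49, 1.78 and 0.97 TPM in the WT embryos and 1.10, 2.34 and 0.04 TPM in the Chaserr+/- embryos. At E13.5, *Alb* was at 146, 437 and 54.6 TPM in WT embryos and at 1807, 106 and 61.4 TPM in Chaserr+/- embryos. Every E13.5 embryo was therefore above every E9.5 embryo, although the E13.5 embryos themselves ranged over 33.1-fold. In WT embryos the rise of *Alb* was 6.96 on the log2 scale (SE 1.61, adjusted p = 0.00188, edgeR fit of the 12 embryos).

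*Ahsg*, which encodes the fetal serum glycoprotein fetuin-A, had 1 count in the 3 E9.5 WT embryos together and 1191 counts in the E13.5 WT embryos. The ratio of these counts, scaled to library size, was 1224, with a 95% counting interval of 219 to 48393, and *Ahsg* passed the test (adjusted p = 0.00369, edgeR). In Chaserr+/- embryos it went from 2 to 4377 counts, a ratio of 2068 (572 to 17085). These intervals cover counting error only.

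*Ttr* had the steadiest rise. It was at 29.9, 14.2 and 7.97 TPM in E9.5 WT embryos and at 312, 279 and 191 TPM in E13.5 WT embryos, and the groups did not overlap. Its log2 fold change was 3.62 (SE 0.49, adjusted p = 2.66e-05, edgeR). *Afp* differed from *Alb* in being already well expressed at E9.5, at 99.4, 56.5 and 25.4 TPM in WT embryos. At E13.5, *Afp* was at 194, 550 and 86.6 TPM in WT embryos, so that the lowest E13.5 embryo lay below the highest E9.5 embryo, and the difference did not pass the test (log2 fold change 1.91, adjusted p = 0.135, edgeR).

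Of the 10 genes, 3 rose in WT embryos (*Alb*, *Ahsg* and *Ttr*) and none fell, where 39.6% of the 16173 genes tested rose. The log2 fold changes of the other 7 ranged from 0.07 for *Hnf4a* to 2.08 for *Trf* (adjusted p = 0.949 and 0.0616, edgeR). *Apoa1* is an example of a gene with much E9.5 expression, at 56.1, 27.5 and 5.36 TPM in E9.5 WT and 36.0, 92.8 and 11.8 TPM in E13.5 WT embryos. The median log2 fold change was 1.95 over the 10 genes and 0.04 over all genes tested. On the normalised count scale of the test, groups did not overlap for 4 genes (*Alb*, *Trf*, *Ttr* and *Ahsg*), against 42.6% of all genes. The count depends on the embryo that stood apart, which enters the estimate of the spread: without it, or in a fit of the 6 WT embryos alone, 7 of the 10 genes passed the test (against 41.4% and 42.1% of all genes).

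**Figure D1:**
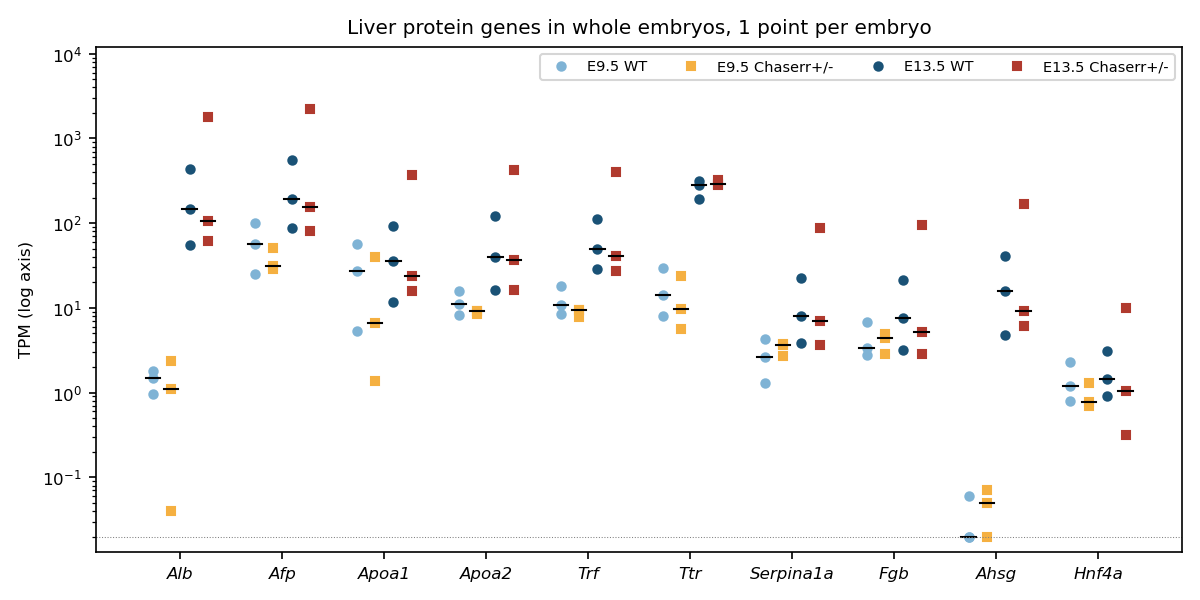
TPM on a log axis of the 10 genes in 12 whole embryos, 1 point per embryo, with a short line at each group's median of 3 (blue circles WT, orange and red squares Chaserr+/-; values below the dotted line at 0.02 are drawn on it). At E9.5 *Ahsg* lay near 0 and *Alb* at up to 2.34 TPM, whereas *Afp* lay at 25.4 TPM or above, and 1 Chaserr+/- embryo was highest at E13.5 for all 10 genes.

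In Chaserr+/- embryos, 8 of the 10 genes rose between the stages (all but *Apoa1* and *Hnf4a*), against 40.0% of all genes. Their log2 fold changes ran from 2.94 for *Fgb*, a subunit of the clotting protein fibrinogen, to 9.10 for *Alb* and 10.42 for *Ahsg*. Without Chaserr+/- replicate 1 at E13.5, 4 genes passed the test (*Alb*, *Ahsg*, *Trf* and *Ttr*; 40.2% of all genes), and without Chaserr+/- replicate 3 all 10 did (39.3% of all genes). The difference between the genotypes in the rise, tested as an interaction, passed for 0 of the 10 genes in edgeR and for 0.0124% of all genes (642 of 16173 at an unadjusted p under 0.05). The smallest unadjusted p among the 10 genes was 0.148 for *Afp*.

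Other hepatocyte genes were mixed over the same interval in WT embryos. Of 26 other plasma protein genes tested, 12 rose and 2 fell, where 39.6% of all genes rose and 37.6% fell. *Serpina6*, which encodes the corticosteroid carrier, rose from 0.35, 0.36 and 0.39 TPM to 31.9, 83.9 and 16.8 TPM (log2 fold change 6.62, adjusted p = 0.00465, edgeR), and *Vtn* (vitronectin) rose by 1.42. *Rbp4*, the retinol carrier that binds transthyretin in plasma, did not pass the test (log2 fold change -0.06, adjusted p = 0.963, edgeR). Of 11 hepatocyte enzyme genes, 5 rose and 3 fell; *Fabp1*, a fatty acid binding protein, rose by 4.80. Of 12 liver transcription factor genes, 2 rose and 5 fell, with 8 of 12 log2 fold changes below 0 (median -0.39). Against that direction, *Cebpa*, a C/EBP factor, rose from 0.94, 0.57 and 0.88 TPM to 5.95, 7.89 and 4.94 TPM.

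At E9.5 some of the 10 genes moved together and others did not. WT replicate 1 was the highest embryo for 7 of the 9 genes measured, which was so for 13.8% of genes. *Apoa1* was highest in WT replicate 1 (56.1 TPM) and Chaserr+/- replicate 3 (40.0 TPM) and lowest in Chaserr+/- replicate 2 (1.37 TPM). *Ttr* had the same order of the 6 embryos, an order found in 13 of 13125 genes with *Apoa1* and *Ttr* counted. The reference for this order was *Apoa1*, whereas at E13.5 it was *Alb*, and such an order is a description with no test. *Rbp4* followed these embryos too, at 55.6, 33.9 and 15.0 TPM in WT and 20.4, 11.3 and 51.4 TPM in Chaserr+/- embryos. *Alb* was not among the 7 and was lowest in Chaserr+/- replicate 3, at 0.04 TPM. The summed TPM of 6 yolk sac visceral endoderm genes moved with *Apoa1* in part, being highest in the same 2 embryos (75.8 in Chaserr+/- replicate 3 and 71.2 in WT replicate 1, against 45.9 to 60.4 in the other 4). The same sum was 144 to 160 TPM in WT mEFs of the Chaserr+/- set, so these genes are not particular to the yolk sac. The part of the yolk sac in the levels of *Apoa1* and *Ttr* was not tested. The ratio of *Afp* to *Alb* TPM was 12.3 to 66.7 in the 5 E9.5 embryos with at least 10 *Alb* counts.

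At E13.5 the genes moved together from embryo to embryo. The pooled SD of log2 CPM (counts scaled to library size) within genotype groups was 2.21 for *Alb*, *Fgb* and *Ahsg*, 1.72 for *Trf* and 0.31 for *Ttr*, while the median over all genes was 0.113. Without Chaserr+/- replicate 1 the SD fell to 1.27 for *Alb* and *Ahsg*, 1.17 for *Fgb* and 0.844 for *Trf*. With all embryos, 99.8% of genes had a lower SD than *Alb*, and 87.2% a lower SD than *Ttr*. The 6 embryos ranked by *Alb* from WT replicate 3 through Chaserr+/- replicate 3, Chaserr+/- replicate 2, WT replicate 1 and WT replicate 2 to Chaserr+/- replicate 1. The same order held for 4 of the 10 genes (*Alb* itself, *Apoa1*, *Apoa2* and *Ahsg*) and for 64 of 14897 genes (0.430%). Chaserr+/- replicate 1 was the highest embryo for all 10 genes, which was so for 8.04% of genes, and more than 2-fold above the next embryo for 9 of them, against 1.74% of genes.

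The ratios between these genes were far steadier than their levels. The TPM ratio of *Afp* to *Alb* ran only from 1.22 to 1.59 over the 6 E13.5 embryos, that of *Apoa1* from 0.202 to 0.254, that of *Fgb* from 0.0462 to 0.0585 and that of *Ahsg* from 0.0862 to 0.110. Thus 4 genes kept their ratio to *Alb* within 1.30-fold while *Alb* ranged over 33.1-fold. Without Chaserr+/- replicate 1, *Alb* ranged over 8.01-fold and the same 4 ratios stayed within 1.27-fold. *Serpina1a* stayed within 1.46-fold and *Apoa2* within 1.48-fold. Reads of *Serpina1a* may be shared with its near-identical paralogs, so its level is uncertain. *Trf* varied by 2.37-fold and *Hnf4a*, measured at 0.32 to 9.97 TPM, by 5.14-fold against *Alb*.

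*Ttr* was the exception, with a ratio to *Alb* between 0.178 and 4.68. It was at 312, 279 and 191 TPM in WT and 322, 285 and 287 TPM in Chaserr+/- embryos, and its highest embryo was 1.03-fold above the next. The summed TPM of 10 choroid plexus genes in the same embryos was 89.2 to 108. The same sum was 59.6 to 71.6 TPM in E9.5 embryos and 38.4 to 50.5 TPM in WT mEFs of the Chaserr+/- set. These genes are therefore not particular to the choroid plexus. Whether *Ttr* at E13.5 came from the choroid plexus was not tested. In a whole embryo, fewer cells of a type and less RNA per cell cannot be told apart.

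**Figure D2:**
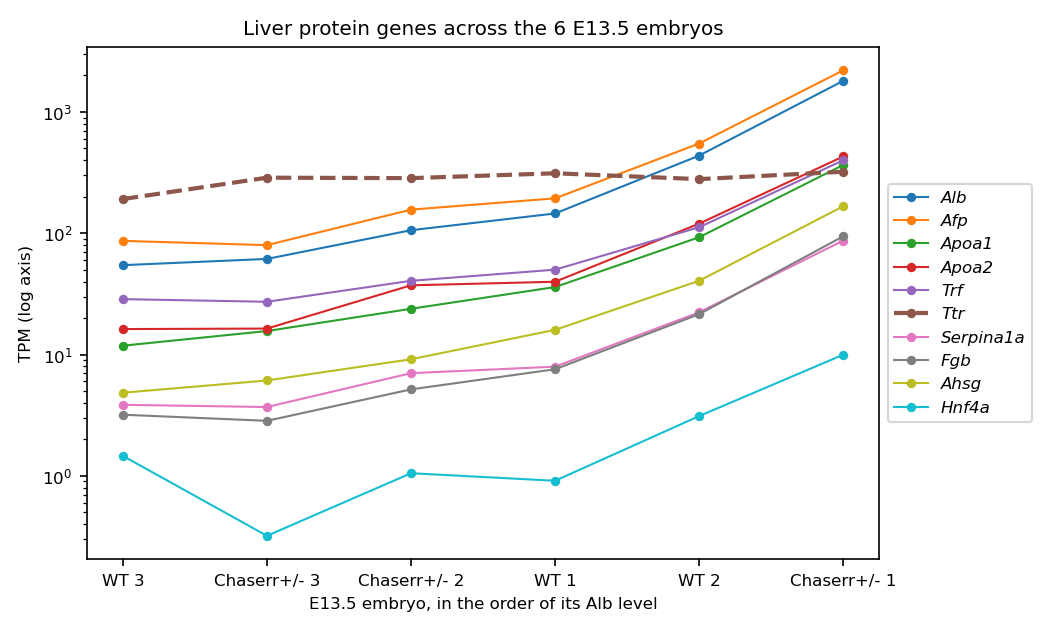
TPM on a log axis of the 10 genes in the 6 E13.5 embryos, ordered along the x axis by *Alb*, with 1 line per gene and *Ttr* dashed. The lines of *Alb*, *Afp*, *Apoa1*, *Apoa2*, *Fgb* and *Ahsg* ran nearly parallel up to Chaserr+/- replicate 1, whereas *Ttr* stayed between 191 and 322 TPM.

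Together the 10 genes made 0.0403% to 0.168% of the transcripts in 5 of the E13.5 embryos and 0.589% in Chaserr+/- replicate 1, against 0.00632% to 0.0231% at E9.5. That embryo was also high for other hepatocyte and erythroid lists. Its summed TPM of the other plasma protein genes was 1776 against 110 to 507 in the other 5 embryos, and that of the hepatocyte enzymes was 185 against 26.4 to 70.3. The erythroid genes summed to 124306 TPM against 30765 to 53580. Among them the adult-type beta globin row (*Hbb-bs* and *Hbb-b1* together) was at 42670 TPM against 6766 to 14874, whereas the embryonic globin *Hbb-y*, made by yolk sac derived red cells, was at 10704 TPM, within the 7084 to 13849 of the others. The macrophage genes (265 against 253 to 288) and the yolk sac genes (73.2 against 72.6 to 79.8) lay within the range of the other embryos. It was the lowest embryo for the oligodendrocyte genes (62.3 against 73.2 to 79.3) and the choroid plexus genes (89.2 against 90.4 to 108). The oligodendrocyte genes summed to 18.2 to 20.8 TPM in WT mEFs of the Chaserr+/- set, so they too are not particular to their cell type. The liver transcription factor genes summed to 50.6 TPM against 41.5 to 46.0. The part of liver tissue content in the levels of the 10 genes was not tested.

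The next comparison asked whether loss of 1 *Chaserr* allele changed the 10 genes. At E9.5 none of the 9 genes tested passed in edgeR (*Ahsg* was too low to test), where 0% of all 14500 genes did (453 at an unadjusted p under 0.05). The log2 fold changes of Chaserr+/- over WT embryos ran from -0.85 for *Apoa1* to 0.32 for *Serpina1a*, and 8 of 9 were below 0. *Afp* was at 60.4 ± 37.2 TPM in WT and 37.2 ± 12.5 TPM in Chaserr+/- embryos (SD, n = 3). The groups overlapped for all 9 genes, against 5.34% of genes without overlap and higher in Chaserr+/- and 4.28% lower.

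At E13.5 the means of all 10 genes were higher in Chaserr+/- embryos, and none passed the test in edgeR (adjusted p = 0.768 to 0.801), where 0.0125% of genes passed as higher and 0.0188% as lower (1011 of 15946 at an unadjusted p under 0.05). *Alb* was at 212 ± 200 TPM in WT and 658 ± 995 TPM in Chaserr+/- embryos (SD, n = 3), a log2 fold change of 1.81 (SE 1.36). *Fgb* had the highest value, 1.85 (SE 1.34), followed by *Alb*, *Ahsg* (1.75), *Afp* (1.73), *Apoa1* (1.70), *Serpina1a* (1.69), *Apoa2* (1.62), *Trf* (1.46) and *Hnf4a* (1.22). *Ttr* had the smallest, 0.25 (SE 0.19). The groups overlapped for each of the 10 genes, against 5.74% of genes without overlap and higher.

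The direction of this difference rested on a single embryo. Without Chaserr+/- replicate 1, 9 of the 10 log2 fold changes were below 0, at -1.36 for *Alb* (SE 0.76, adjusted p = 0.579, edgeR), -1.25 for *Afp*, -1.27 for *Apoa1* and -0.93 for *Trf*. *Ttr* remained at 0.12 (SE 0.17). *Hnf4a*, the transcription factor of the group, went to -1.42 (adjusted p = 0.547, edgeR). Again none of the 10 genes passed, against 0.0124% of genes higher and 0.00621% lower.

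**Figure D3:**
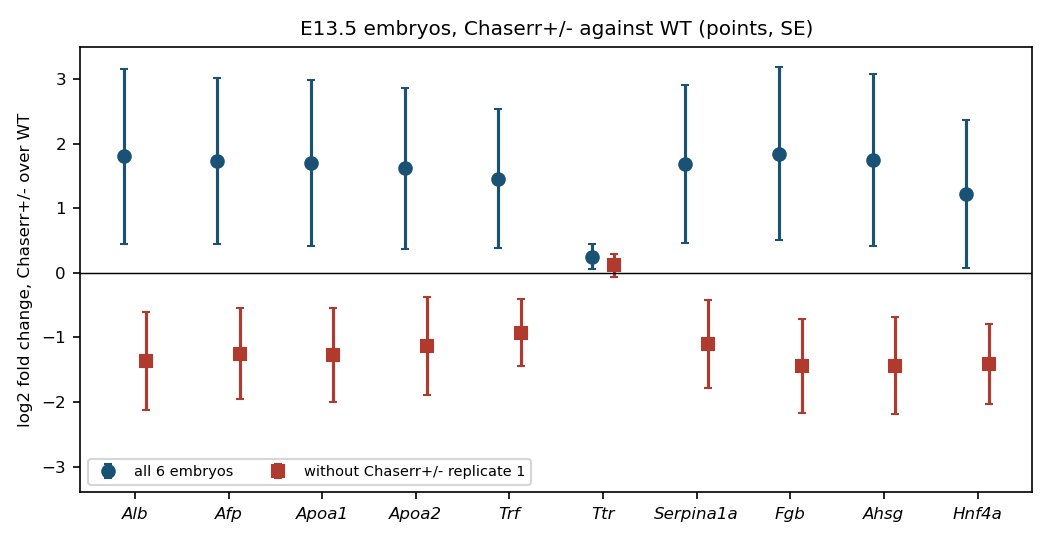
Log2 fold change of Chaserr+/- over WT E13.5 embryos with its SE for the 10 genes, fitted on all 6 embryos (blue circles) and without Chaserr+/- replicate 1 (red squares). All 10 circles lay above 0, and 9 of the 10 squares lay below it, with *Ttr* near 0 in both.

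The other hepatocyte lists and the erythroid genes turned in the same way. Of the other plasma protein genes tested, 25 of 25 had a log2 fold change above 0 (median 1.49) with all embryos and 1 of 25 (median -1.26) without that embryo. The hepatocyte enzymes went from a median of 1.20 to -1.001, the erythroid genes from 1.12 to -0.30 and the Serpina1 paralogs from 1.44 to -1.32. The macrophage genes had a median of -0.02 with all embryos and -0.09 without it, and the yolk sac genes 0.14 and 0.09. None of these genes passed the test. *Serpina6* showed the pattern embryo by embryo, at 31.9, 83.9 and 16.8 TPM in WT and 343, 21.7 and 9.71 TPM in Chaserr+/- embryos.

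In adult brain only *Trf* and *Ttr* were abundant among the 10 genes. *Ttr* was at 1889, 1936 and 2954 TPM in WT brains and *Trf* at 397, 529 and 424 TPM. Against WT E13.5 embryos, *Trf* was higher by 2.95 and *Ttr* by 3.24 on the log2 scale (adjusted p = 6.71e-05 and 2.48e-05, edgeR), and the other 8 genes were lower, where 36.8% of all genes were higher and 39.5% lower. *Alb* was at 0, 0.08 and 1.68 TPM in WT brains (log2 fold change -7.86), with the value of 1.68 in the library made with the TruSeq kit. Without that library the log2 fold change of *Alb* was -12.00. That value rests on 1 count, as WT replicates 1 and 2 held 0 and 1 *Alb* counts. The log2 fold change of *Afp* was -10.92 and that of *Apoa1* was -4.59. *Fgb* had 2 counts in the 3 WT brains and 716 in the WT embryos, a ratio of 285 (95% counting interval 78.7 to 2362). *Hnf4a* had 0 counts in WT brains, so that it was at least 88.5-fold lower, taking 3 counts over the group as the floor. Tissue and library kit are confounded in part of this comparison.

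Between genotypes, *Trf* was lower in Chaserr+/- brains, at 325, 181 and 155 TPM against 397, 529 and 424 TPM in WT brains. The groups did not overlap, as for 5.11% of all genes that were lower, and the log2 fold change was -1.03 (SE 0.34), with an unadjusted p of 0.0198 and an adjusted p of 1.00 in edgeR. *Ttr* was at 2004, 1341 and 1423 TPM in Chaserr+/- brains, which overlaps with WT (log2 fold change -0.49, SE 0.25). *Apoa1*, at 2.20, 2.36 and 1.14 TPM in WT and 3.57, 8.73 and 2.38 TPM in Chaserr+/- brains, had a log2 fold change of 1.39. Of the 10 genes, 4 were tested and 0 passed in edgeR, where 0% of the 14911 genes did (368 at an unadjusted p under 0.05).

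Markers of the cells that make these proteins in the brain lay lower in Chaserr+/- brains as well. All 10 oligodendrocyte genes had a log2 fold change below 0 (median -0.69), among them the myelin genes *Mbp* (-0.54) and *Mobp* (-0.61), and none passed the test. Their summed TPM was 9319, 10440 and 15065 in WT and 9343, 7086 and 5837 in Chaserr+/- brains. All 10 choroid plexus genes were also below 0 (median -0.67), including *Kl* (-1.10), *Folr1* (-0.72) and *Clic6* (-0.49). Their sums were 61.7, 55.8 and 121 TPM in WT and 48.2, 38.7 and 52.0 TPM in Chaserr+/- brains. The macrophage genes lay lower too, with 7 of 8 below 0 and 1 above (median -0.23), while the median over all genes tested was 0.01. The part of these cell types in the values of *Trf* and *Ttr* was not tested.

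**Figure D4:**
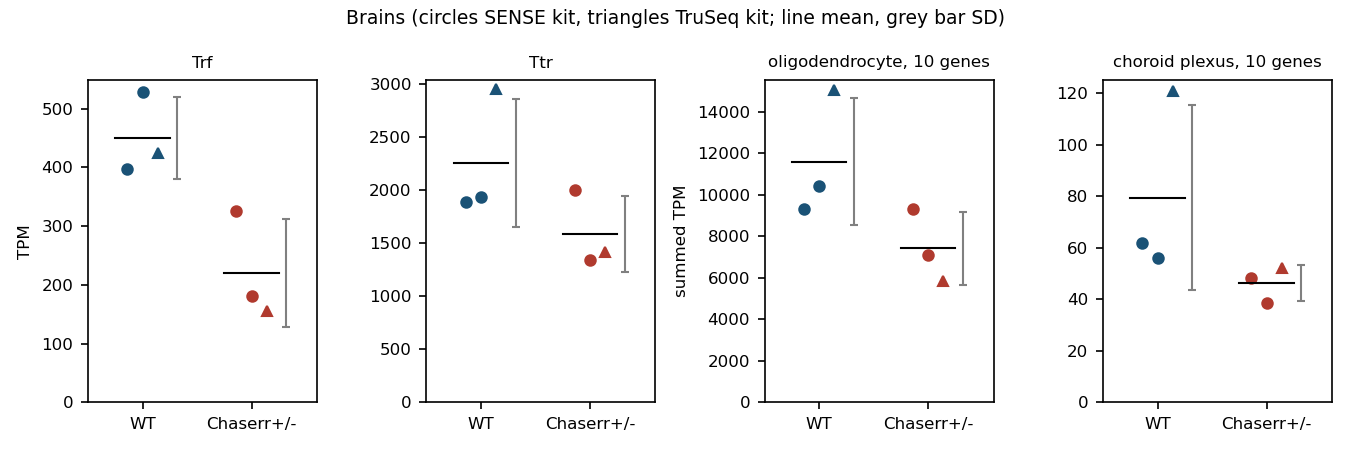
TPM of *Trf* and *Ttr* and summed TPM of 10 oligodendrocyte and 10 choroid plexus genes in brains (blue WT, red Chaserr+/-; circles SENSE kit, triangles TruSeq kit; line at the mean of 3, grey bar SD). The 3 Chaserr+/- brains lay between 155 and 325 TPM for *Trf*, below the WT brains at 397 to 529, whereas the genotypes overlapped for *Ttr*.

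The mEFs came from embryos without their liver, and the liver genes were low in them. In WT mEFs of the Chaserr+/- set all 10 genes were lower than in WT E13.5 embryos, where 40.8% of genes were lower and the median of all genes was shifted by -0.20. The log2 fold change was -7.22 for *Alb*, -6.10 for *Apoa1* and -7.52 for *Ttr*, but only -3.23 for *Afp* and -2.35 for *Trf*. *Serpina1a* had 0 counts and was at least 129-fold lower, taking 3 counts over the group as the floor. *Ahsg* and *Hnf4a* each had 1 count, with ratios of embryo to mEF of 600 (95% counting interval 108 to 23735) and 168 (29.9 to 6650). These folds hold for the Chaserr+/- set only. In WT mEFs of the Chaserr-/- set, mean levels were 0.55 TPM for *Serpina1a*, 1.62 TPM for *Ahsg* and 0.193 TPM for *Hnf4a*. Their means in WT E13.5 embryos were 11.4, 20.5 and 1.83 TPM. No test against embryos was made for that set. Tissue and kit cannot be told apart here, and this comparison used the same embryos as that with brain.

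*Afp* was above *Alb* in every mEF culture, and the levels of both differed widely between sets and cultures. In WT mEFs of the Chaserr+/- set it was at 6.05, 12.02 and 31.4 TPM, and in WT mEFs of the Chaserr-/- set at 25.2, 38.7 and 76.0 TPM. *Alb* was at 0.13, 0.63 and 1.67 TPM in the former and at 11.4, 12.5 and 35.0 TPM in the latter. The *Afp* to *Alb* ratio also differed between sets: 18.0 to 21.9 in the Chaserr+/- set (4 libraries with at least 10 *Alb* counts), 5.87 to 18.0 in the Chd2m/m set, 2.13 to 3.95 in the Chaserr-/- set and 2.97 to 4.58 in the Chaserr-/- Chd2m/m set, all above the 1.22 to 1.59 of the E13.5 embryos. *Ttr* stood out in the Chd2m/m set, at 31.1, 24.2 and 55.3 TPM in WT cultures against 0.11 to 4.92 TPM in the WT cultures of the other sets.

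Against their own WT cultures, none of the genes tested passed in any mEF set in edgeR. In Chaserr+/- mEFs, 0 of 4 passed (0.128% of genes higher and 0.0452% lower; 1111 of 13282 at an unadjusted p under 0.05), with log2 fold changes of 0.41 for *Alb*, 0.30 for *Afp* and 0.23 for *Trf*. In Chd2m/m mEFs, 0 of 6 passed (0.00726% in each direction; 621 of 13777 at an unadjusted p under 0.05), with 0.42 for *Alb*, 0.30 for *Afp* and -0.56 for *Ttr*. With 2 Chd2m/m cultures, at 20.9 and 73.4 TPM of *Afp*, the spread was as wide as in WT (54.4, 11.1 and 51.2 TPM).

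In Chaserr-/- mEFs, *Alb* was at 25.2, 0.92 and 4.13 TPM and *Afp* at 91.3, 3.63 and 8.79 TPM. Thus the first culture lay at the level of the WT cultures or above, and the other 2 below all of them. None of the 4 genes tested passed in edgeR (0.0221% of genes higher and 0.0957% lower, with 4601 of 13580 at an unadjusted p under 0.05). The log2 fold changes were -1.06 for *Alb* (adjusted p = 0.375, edgeR), -0.53 for *Afp* and -0.41 for *Ttr*. The study, with DESeq2 and its own thresholds, reported many more genes as changed in these mEFs than passed here. Without Chaserr-/- replicate 1, a fit chosen after its values were seen, 3 of the 5 genes tested were lower, against 3.43% of all genes. They were *Afp* (log2 fold change -2.99, adjusted p = 0.0224), *Alb* (-3.06, adjusted p = 0.0325) and *Ttr* (-2.58, adjusted p = 0.0254, edgeR). The erythroid genes lay with them in part, at 475, 978 and 488 summed TPM in WT and 412, 189 and 147 in Chaserr-/- mEFs. The macrophage genes summed to 1027, 880 and 907 TPM in WT and 622, 666 and 674 in Chaserr-/- mEFs, and 1 of 8 passed the test as lower. Without Chaserr-/- replicate 1, 5 of 8 macrophage genes and 3 of 8 erythroid genes were lower. Their part in the values of *Alb* and *Afp* was not tested.

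In Chaserr-/- Chd2m/m mEFs, *Alb* was at 4.86, 8.40 and 1.90 TPM, below the 11.4, 15.7 and 13.52 TPM of their WT cultures (log2 fold change -1.37, SE 0.36, adjusted p = 0.202, edgeR). *Afp* was at 22.2, 37.3 and 7.41 TPM against 40.5, 46.6 and 61.2 TPM (log2 fold change -1.12, SE 0.40, adjusted p = 0.363, edgeR). *Ttr* was at 2.18, 2.84 and 0.63 TPM against 2.99, 4.19 and 4.15 TPM, and *Fgb* at 0.54, 0.60 and 0 TPM against 1.05, 0.80 and 1.49 TPM. These 4 of the 6 genes tested did not overlap between the groups, against 7.40% of genes that were lower, yet none passed the test in edgeR (0.0497% of genes higher and 0.0426% lower; 1392 of 14076 at an unadjusted p under 0.05). The macrophage genes had log2 fold changes below 0 for 8 of 8 in the same cultures, with a median of -0.43, and 5 of 6 erythroid genes were below 0, with a median of -0.99. Their part in the values of *Alb* and *Afp* was not tested.

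**Figure D5:**
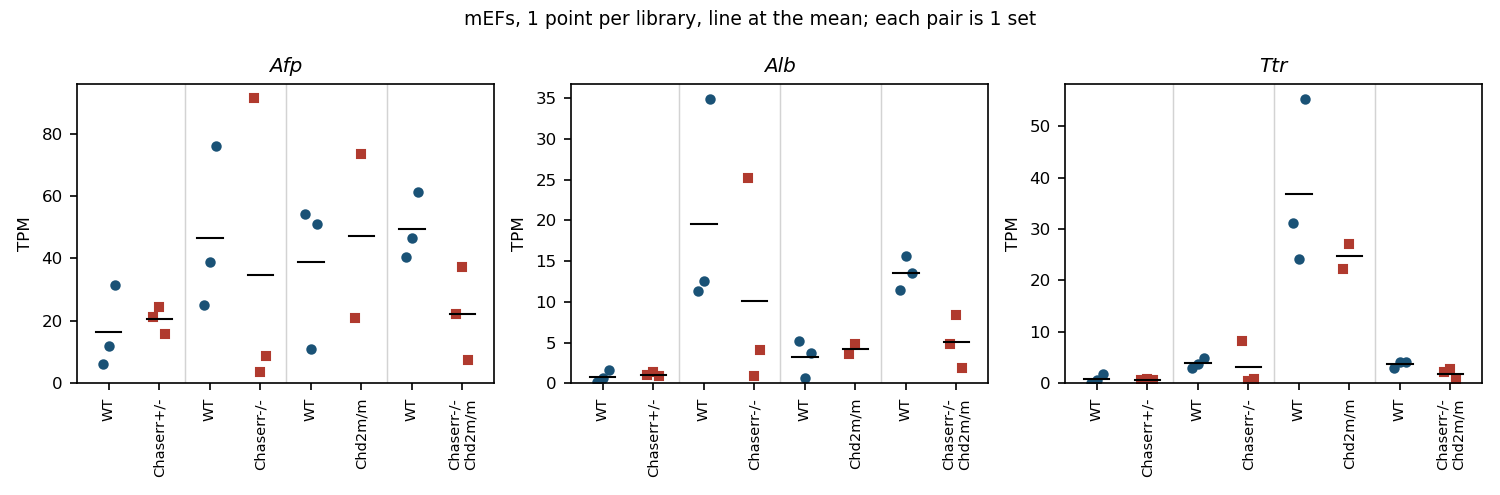
TPM of *Afp*, *Alb* and *Ttr* in the mEF libraries, 1 point per library with a line at the mean, for the 4 sets in pairs of WT (blue circles) and mutant (red squares). Within each set the levels varied widely between cultures, and 1 Chaserr-/- culture at 91.3 TPM of *Afp* lay above its WT cultures while the other 2 lay at 3.63 and 8.79.

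Open chromatin at the promoters of these genes was rarely called in mEFs. The study labels these libraries as mEFs, although the extraction protocol in their labels names dorsal root ganglia. No peak lay within 300 bases of a start of 9 of the 10 genes in any of the 12 ATAC-seq libraries, in which the authors had called 18661 to 93597 peaks. By the same window, 34.7% to 62.8% of 22378 protein-coding genes had a promoter peak in each library. *Trf* had a promoter peak in 2 of 12 libraries, 1 Chaserr-/- and 1 Chaserr-/- Chd2m/m, at fold enrichments of 4.11 and 4.19. The promoter of *Chd2*, which is active in these cells, had one in 12 of 12. No test between genotypes was made on these counts.

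Across 30 libraries of embryos, brains and mEFs of the Chaserr+/- and Chaserr-/- sets, the genes whose log2(TPM + 0.1) followed the mean of the 10 genes most closely were *Plg* (Pearson r = 0.946), *Prodh2* (0.944), *Proc* (0.944), *F2* (0.943) and *Fga* (0.940), out of 16731 genes. Among these, *Plg*, *Proc*, *F2* and *Fga* encode plasminogen, protein C, prothrombin and the fibrinogen alpha chain, all plasma proteins of the liver. Of the 10 genes themselves, *Serpina1a* followed the mean best (0.925), and *Ttr* (0.481) and *Trf* (0.343), the genes that stayed high in brain, followed it least. These libraries differ in tissue, kit and depth, so the values are a description.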

How the data were processed

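RNA-seq was made from whole embryos, brains and mEFs, and ATAC-seq from mEFs. The deposited gene tables hold estimated counts and TPM, which the authors made with RSEM (Bowtie2 is also named in the submitters' processing notes; its version is not given in the sources used here). The deposited ATAC-seq peak lists, in mm9, hold each peak's fold enrichment and −log10 p and q values as the authors called them with MACS2, library by library. Some processing notes name mm9 and mm10 together, so coordinates of genes come from GENCODE vM1 (mm9) and promoters from RefSeq (GRCm38.p6).

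Estimated counts were rounded and tested with edgeR 4.0.16 (R 4.3.3; filterByExpr, TMM, quasi-likelihood test, Benjamini-Hochberg over all genes, threshold 0.05). The 12 embryos were fitted together for stage, and each genotype comparison on its own libraries. Levels between genes are in TPM. The 10 genes and all lists were chosen with earlier results of these data known. The text names the 10 genes, *Chd2* and *Chaserr*, up to 3 genes of each other list with the highest mean TPM in WT E13.5 embryos (WT brains for brain lists) and the 5 genes most like the mean of the 10. One gene that this rule would name is not reported here.

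In the brains, same-numbered deviations from the group means correlated at 0.437, 0.529 and 0.747. Replicate 3 used another kit in both brain groups, so pairing and kit cannot be told apart there. Alternatives were DESeq2 1.42.0, testing without the expression filter or with a minimum of 10 counts per library, a replicate block, library kit, and leaving out each sample. The fits were tested on simulated counts: for E13.5 genotypes, 71% of genes changed by 1 on the log2 scale and 99.0% of those changed by 2 were recovered (15810 genes), and for brains 3.06% and 71.7% (14677 genes). The changed genes were drawn at random from all genes tested, of which the median SD of log2 CPM at E13.5 was 0.113. Among the 10 genes this SD ran from 0.31 for *Ttr* to 2.21 for *Alb*, so the E13.5 shares need not hold for them. Figures were drawn with matplotlib 3.10.9.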

Additional observations from a re-analysis of the deposited data

Results flagged for a closer look

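Signals of 5 of the 10 genes appeared in the 2 input libraries of Neuro2a cells, which no comparison above used. The mean TPM there was 1666 for *Ttr*, 33.1 for *Trf*, 0.520 for *Apoa2*, 0.385 for *Apoa1* and 0.0650 for *Hnf4a*. Over both libraries *Apoa2* had only 4 counts, *Apoa1* 6 and *Hnf4a* 5, with *Hnf4a* at 0 in 1 library. Their values are therefore near the floor. *Ttr* was at 1956 and 1376 TPM, a level like that of whole brain, and *Trf* at 38.0 and 28.3 TPM. The study made the libraries of this experiment from RNA depleted of ribosomal RNA, and those of brain with mRNA kits. The levels are therefore not directly comparable. *Alb*, *Afp*, *Serpina1a*, *Fgb* and *Ahsg* were listed at 0 in both libraries. The groups of 3 samples are too small to test for single outlying values.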

How the results depend on the processing

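The counts of genes that passed depended on a few choices. For the rise in WT embryos, 3 genes passed, 7 in the 6 WT libraries alone, and 3 to 7 when 1 embryo was left out. For Chaserr+/- embryos, 8 passed and leaving out 1 embryo gave 4 to 10. In Chaserr-/- mEFs, leaving out 1 culture gave 0 to 3 lower genes. With a minimum of 10 counts per library, 1 gene was left to test and passed in each of the tissue comparisons. With the replicate block, 1 gene (*Afp*, log2 fold change 0.57) passed in Chd2m/m mEFs, and *Hnf4a* at E13.5 turned to -0.20. In the brains the block changed no call. The embryo and mEF numbers showed no pairing (correlations of same-numbered deviations from -0.286 to 0.354). No paired analysis was possible because of unshared numbers in the Chaserr-/- set and different tissues in the tissue comparisons. DESeq2 left 85 of 86 results the same, and dropping the filter 86. For a single gene this means the same sign and side of the threshold, and for a count of genes that passed, a similar count.

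Leaving out 1 library turned these log2 fold changes. For the rise in WT embryos, *Apoa1* ran from -0.61 to 1.22 and *Hnf4a* from -0.56 to 0.60. For the rise in Chaserr+/- embryos, *Apoa1* ran from -0.0161 to 4.83, *Fgb* from -0.32 to 3.48 and *Hnf4a* from -0.70 to 2.44. Between genotypes at E9.5, *Alb* ran from -1.23 to 0.27, *Ttr* from -1.15 to 0.27, *Serpina1a* from -0.0203 to 0.81 and *Fgb* from -0.29 to 0.44. At E13.5, *Alb* ran from -1.36 to 2.92, *Afp* from -1.25 to 2.74, *Apoa1* from -1.27 to 2.70, *Apoa2* from -1.13 to 2.70, *Trf* from -0.93 to 2.18, *Serpina1a* from -1.10 to 2.66, *Fgb* from -1.44 to 2.87, *Ahsg* from -1.44 to 2.75 and *Hnf4a* from -1.42 to 1.86. In brains, *Apoa2* ran from -1.02 to 0.35. In mEFs, *Alb* and *Afp* ran from -0.13 to 1.57 and from -0.11 to 1.21 (Chaserr+/-) and from -0.0548 to 0.94 and from -0.84 to 0.93 (Chd2m/m), and in Chaserr-/- mEFs *Afp* ran from -2.99 to 0.0230 and *Ttr* from -2.58 to 0.11. Without WT replicate 2 at E13.5, the log2 fold change between stages in WT embryos was 5.85 for *Alb* and 8.49 for *Ahsg*. Without Chaserr+/- replicate 1 at E13.5, that in Chaserr+/- embryos was 5.97 for *Alb* and 7.25 for *Ahsg*. The cause was not tested. In brains, the simulated test recovered 3.06% of genes changed by 1 on the log2 scale, against 85% in Chaserr+/- mEFs (biological coefficient of variation 0.334 in brains and 0.103 in those mEFs).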
